A study of Mus musculus with 8 samples.

Results

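Matricellular proteins are secreted proteins that sit in the extracellular matrix and signal to cells there without forming its load-bearing fibres. The genes described here are those of periostin (Postn), the thrombospondins 1 and 2 (Thbs1, Thbs2), osteonectin (Sparc) and its relative hevin (Sparcl1), tenascin C (Tnc), osteopontin (Spp1), the TGF-beta induced protein (Tgfbi), the follistatin-like protein (Fstl1) and fibronectin (Fn1), a fibril-forming matrix glycoprotein. They were listed by function, with earlier results of these data known, and every probe set annotated to a single symbol of these was taken. Of the 10 genes, 9 had such a probe set, 20 probe sets in all out of 45101 on the array. Spp1 had none and was not analysed here. After a filter on low values 18 of the 20 were tested, and the remaining probe sets, Sparc 1458204_at and Tnc 1456344_at, were too dim for it.

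The study used 2 mouse cell lines and 8 arrays of total RNA. NIH3T3 is a line of embryonic fibroblasts, cells that make and organise matrix, and B16F10 is a melanoma line, derived from pigment cells. Each line had 1 control and 3 cultures labelled as overexpressing PGC7, called PGC7 arrays here, also known as Stella, a protein of oocytes, early embryos and germ cells encoded by Dppa3 that bears on DNA methylation. In NIH3T3 these were clone 1, clone 2 and a culture labelled as before cloning, here the uncloned array; in B16F10 they were clones 1, 2 and 3. The protocol shared by all samples describes overnight infection of the cells with virus and polybrene. The labels do not tell whether a control culture received any virus. Each clone is 1 isolate of its line, each control is a single array with no spread of its own, and no promoter or age of the lines is stated. The genotype field of all 6 names PGC8/Stella rather than PGC7 and describes the clones, too, as not yet cloned, so titles set the groups.

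As background, matricellular proteins bind integrins and other receptors and tune adhesion, migration and growth factor release. Thrombospondin 1 activates latent TGF-beta and binds CD36 and CD47, Postn and Tgfbi share fasciclin domains and bind integrins, and Sparc, Sparcl1 and Fstl1 share a follistatin-like and calcium-binding architecture. In fibroblasts many of these genes respond to TGF-beta and to mechanical load, while melanoma lines are known for making Sparc.

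The values are MAS5 signals, intensity units on a linear scale, and each array was scaled to a trimmed mean of 500, the scale on which the deposited B16F10 arrays already stood. Changes are differences of log2(signal + 9), which understates changes of dim probe sets. A probe set was called higher or lower at a Benjamini-Hochberg adjusted p under 0.05 over all 25236 tested probe sets in limma's moderated test. In this bulk RNA, fewer cells making a transcript and less transcript per cell cannot be told apart. Summed over 12 fibroblast markers, signals were 100563 to 137576 in the NIH3T3 arrays and 588 to 871 in the B16F10 arrays, and over 10 melanocyte markers 657 to 911 and 115434 to 155546, so the line labels and the markers went together. Over all tested probe sets the NIH3T3 control correlated at 0.912 to 0.920 with the PGC7 arrays of its line and these at 0.962 to 0.978 with one another, and in B16F10 the ranges were 0.970 to 0.977 and 0.983 to 0.987. Dppa3 itself (1424295_at) was not called in either line. In NIH3T3 the control read 69.8, and the uncloned array, clone 1 and clone 2 read 101, 29.7 and 55.4. In B16F10 the control read 23.5, and clones 1 to 3 read 70.0, 117 and 71.0. Both NIH3T3 clones were thus below their control. Whether this probe set reads the introduced sequence is not stated, so it does not check the NIH3T3 labels, and every direction below is that of the arrays as labelled.

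In NIH3T3 the PGC7 arrays had far less Postn, Thbs1 and Fstl1 signal and about 2-fold less Sparc than the control, and more Thbs2 and Tgfbi. Of the 18 tested probe sets, 8 fell and 5 rose, where 6.32% and 6.47% of all tested probe sets did. By gene, each stood for by its brightest probe set, 4 of 9 fell (Postn, Thbs1, Sparc, Fstl1) and 2 rose (Thbs2, Tgfbi), against 7.35% and 7.88% of all 11623 tested genes. The median change of the 9 genes was -0.999, and -0.04 over all genes. Because the genes were chosen with earlier results of these data known, the counts beside these shares are a description and no test of an excess. In B16F10 the only gene called was Sparc, which fell at both of its tested probe sets. There, 2 of 18 probe sets fell and 0 rose (0.265% and 0.923% of all), or 1 of 9 genes and 0 (0.387% and 1.18% of all), and the median over the genes was -0.04 against 0.05. At an unadjusted p under 0.05 in the same test, 4 of the 18 were lower and 2 higher in B16F10, where 5.93% and 9.15% of all tested probe sets were. Without the uncloned array, 15 were called in NIH3T3 and 8 in B16F10, but the shares over all probe sets rose too, to 23.9% and 7.08%. Without B16F10 clone 1 the B16F10 count was 1, where 0.268% of all probe sets were called.

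**Figure D1:**
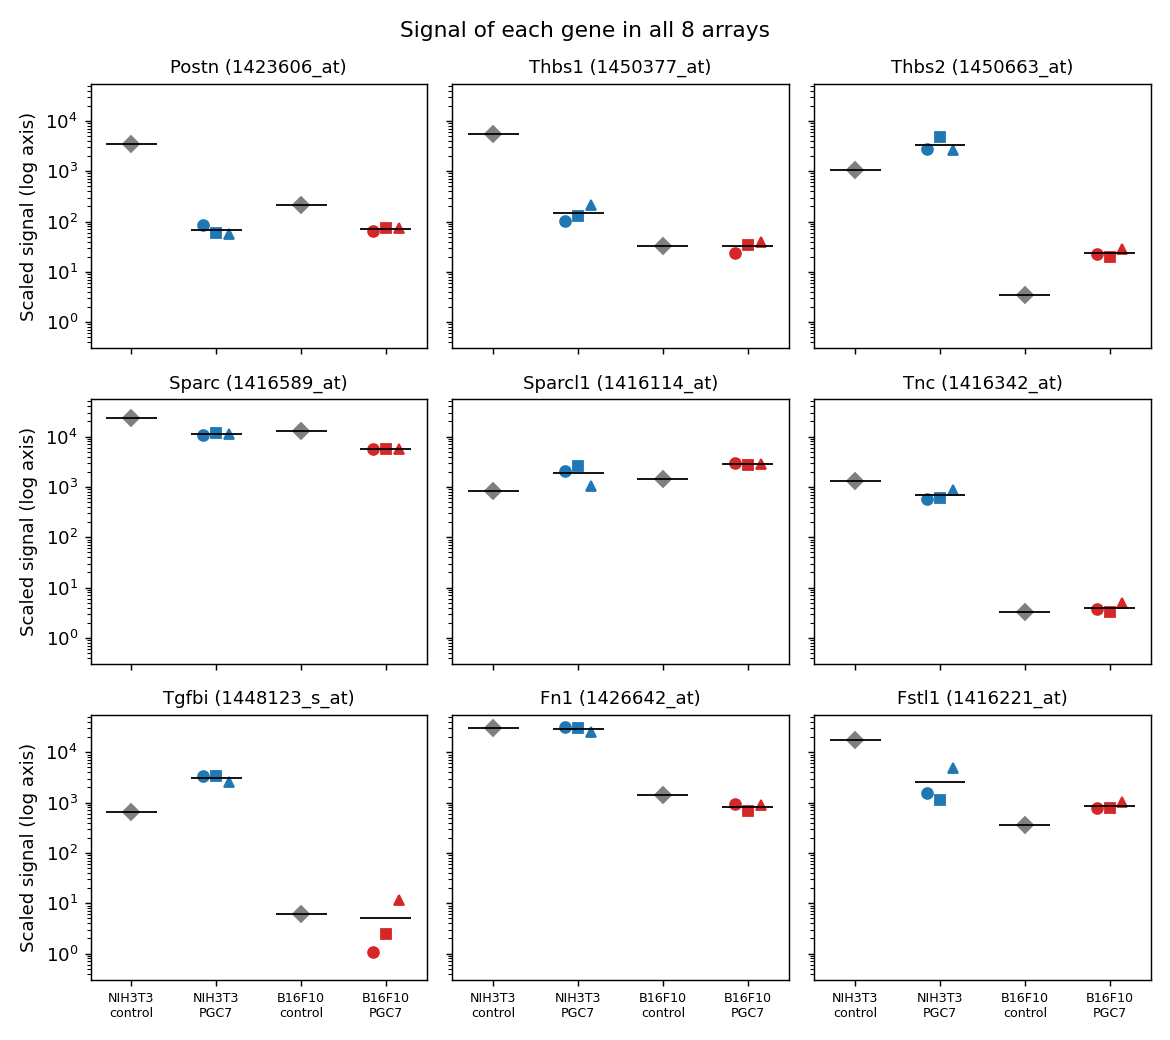
Scaled signal on a log axis of the 9 genes at their brightest probe set in all 8 arrays. Grey diamonds are the single controls, blue and red symbols the PGC7 arrays of NIH3T3 and B16F10 (circle clone 1, square clone 2, triangle the uncloned NIH3T3 array or B16F10 clone 3), and lines are group means. Postn, Thbs1 and Fstl1 drop below the control in all 3 NIH3T3 PGC7 arrays, whereas Sparc drops in both lines.

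Promoters of 2 genes that fell in NIH3T3 (Postn, Fstl1) and of 2 that rose (Thbs2, Tgfbi) are shown to set the opposite changes beside their sequence. RefSeq start sites on assembly GRCm38.p6 were matched for 7 of the 10 genes, without Thbs1, Fn1 and Sparcl1, and the 250 bases before each start were searched on both strands for TATAAA (the TATA box core), GGAATG (the TEAD core), TGACTCA (the AP-1 site) and CAGAC (part of a Smad element), none of which contains another. Among 32851 such windows of the table, 12.4% hold TATAAA, 12.6% GGAATG, 4.46% TGACTCA and 42.2% CAGAC. Capitals mark matches. The Postn window is at chr3:54360857-54361106 on the plus strand, Fstl1 at chr16:37776805-37777054 on the plus strand, Thbs2 at chr17:14694263-14694512 on the minus strand and Tgfbi at chr13:56609336-56609585 on the plus strand.
Postn: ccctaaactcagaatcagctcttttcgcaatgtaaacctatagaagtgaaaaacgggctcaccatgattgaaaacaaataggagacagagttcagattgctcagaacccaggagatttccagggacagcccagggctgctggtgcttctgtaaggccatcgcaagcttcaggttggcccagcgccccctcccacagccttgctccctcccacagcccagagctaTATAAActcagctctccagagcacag
Fstl1: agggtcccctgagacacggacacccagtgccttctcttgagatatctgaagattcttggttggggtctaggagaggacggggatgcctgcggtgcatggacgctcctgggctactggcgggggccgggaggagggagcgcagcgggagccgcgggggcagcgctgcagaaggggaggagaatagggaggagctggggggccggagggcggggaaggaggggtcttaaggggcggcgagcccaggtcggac
Thbs2: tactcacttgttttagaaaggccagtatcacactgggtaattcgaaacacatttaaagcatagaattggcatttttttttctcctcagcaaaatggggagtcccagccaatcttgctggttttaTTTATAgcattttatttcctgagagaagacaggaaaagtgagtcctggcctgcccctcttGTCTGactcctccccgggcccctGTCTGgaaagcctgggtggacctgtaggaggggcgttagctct
Tgfbi: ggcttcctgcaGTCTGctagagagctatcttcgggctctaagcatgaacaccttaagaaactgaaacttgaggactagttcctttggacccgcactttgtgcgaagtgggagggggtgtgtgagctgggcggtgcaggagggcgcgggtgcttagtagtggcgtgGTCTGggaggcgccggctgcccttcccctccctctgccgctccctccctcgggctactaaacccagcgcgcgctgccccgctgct

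The Postn window holds TATAAA, beginning 26 bases before the start. The other Postn start of the table, with its window at chr3:54359017-54359266, has no TATAAA and 1 CAGAC. Thbs2 holds TATAAA 126 bases before the start and CAGAC at 66 and 43, Tgfbi holds CAGAC at 239 and 85, and Fstl1 holds none of the 4 motifs. The number of CG dinucleotides, where mammalian DNA methylation occurs, was 4 in the Postn window shown, 3 in Thbs2, 4 in Sparc, 15 in Tgfbi and 16 in Fstl1, with a median of 6 over all windows. Of the genes that fell, Fstl1 had a CG-rich window and Postn and Sparc CG-poor ones, and of those that rose, Tgfbi was CG-rich and Thbs2 CG-poor, so high and low counts occurred in both directions. The overlapping Tnc windows held 8 and 10, with TATAAA in both, and those of Spp1 held 3 each.

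Postn codes for periostin, a fasciclin-domain protein that helps cross-link collagen. Its only probe set, 1423606_at, read 3406 in the NIH3T3 control. The uncloned array read 57.4, clone 1 read 85.3 and clone 2 read 60.2. The control thus lay far above 3 PGC7 arrays that were close together. The change was -5.50 ± 0.31 on the log2 scale (± SE, 3 PGC7 arrays against 1 control, adjusted p = 6.87e-05), a 45.1-fold fall. It was called under all 15 alternatives, with changes of -5.80 to -4.88. In B16F10 the control had 213 and clones 1 to 3 had 65.1, 73.8 and 75.7. All 3 clones were again below their control, but this lower value was not called (-1.47 ± 0.31, adjusted p = 0.072). It was called with the B16F10 arrays fitted alone (adjusted p = 0.027), with spike scaling (0.0225) and when the uncloned NIH3T3 array was left out (0.0226). The PGC7 arrays of both lines, 57.4 to 85.3, overlapped, the B16F10 control lay above them and the NIH3T3 control was highest.

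Thbs1 codes for thrombospondin 1, a trimeric glycoprotein released by platelets and fibroblasts. At 1450377_at the NIH3T3 control read 5475 and the uncloned array 213, while clones 1 and 2 read 103 and 127. The uncloned array was the highest of the PGC7 arrays and still far under the control. The change was -5.19 ± 0.43 (adjusted p = 0.000321). At 1460302_at the control had 7578 and the PGC7 arrays 249, 82.1 and 102 in the same order, a change of -5.78 ± 0.58 (adjusted p = 0.000651). Both were called under all 15 alternatives. In B16F10 both of these probe sets were dim in every array. A further probe set, 1421811_at, annotated to both Pald1 and Thbs1 and not tested as a member, was brighter there. It read 271 in the B16F10 control and 119, 144 and 77.0 in clones 1 to 3, all below the control. Which of the 2 genes it reads was not tested. At the single-symbol probe sets the B16F10 values were as follows. The control had 33.1 and the clones 23.5 to 39.2 at 1450377_at, and 33.8 against 12.2 to 26.2 at 1460302_at. The former groups overlapped and the latter did not, and neither probe set was called (-0.04 ± 0.43 and -0.58 ± 0.58, adjusted p = 0.98 and 0.702).

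Thbs2, coding for thrombospondin 2, the closest relative of Thbs1 and an inhibitor of angiogenesis, went the other way. At 1450663_at the NIH3T3 control read 1067 and the uncloned array 2611, while clones 1 and 2 read 2790 and 4738. The control was the lowest array and clone 2 the highest. The change was 1.60 ± 0.36 (adjusted p = 0.0227). At 1422571_at the signals were 2248, 6530, 4241 and 7155 (1.37 ± 0.32, adjusted p = 0.0268), and at 1447862_x_at 654, 1590, 1414 and 2096 (1.35 ± 0.38, adjusted p = 0.0522, not called). The control was lowest at all 3 probe sets. The call at 1450663_at was lost with the NIH3T3 arrays alone (adjusted p = 0.0674) and without the variance trend (0.0507), and that at 1422571_at was lost under 4 alternatives, among them leaving out clone 2 (adjusted p = 0.0751). In B16F10 no Thbs2 array exceeded 28.7 at any of these probe sets, under the filter signal of 49.3. The change at 1450663_at, from 3.45 to 22.8, 19.5 and 28.7 in clones 1 to 3, was 1.38 ± 0.36 (adjusted p = 0.113), and the other probe sets had 0.09 and -0.40 (adjusted p = 0.931 and 0.682). The call of 1450663_at appeared in B16F10 at a pseudocount of 1 (adjusted p = 0.0287) and without the uncloned NIH3T3 array (0.0476).

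Sparc codes for osteonectin, a collagen-binding matricellular protein made by fibroblasts and by many melanomas, and it was the only one of the 9 measured genes called lower in both lines. At 1416589_at the NIH3T3 control read 23319 and the uncloned array 11502, while clones 1 and 2 read 10657 and 11833. The B16F10 control had 12620 and its clones 5587, 5609 and 5626. In each line the PGC7 arrays lay close together and far below the control. The changes were -1.04 ± 0.10 in NIH3T3 (adjusted p = 0.000553) and -1.17 ± 0.10 in B16F10 (adjusted p = 0.00228). At 1448392_at they were -1.25 ± 0.12 (11987 to 5331, 4802 and 4942, adjusted p = 0.000568) and -0.98 ± 0.12 (6919 to 3389, 3338 and 3815, adjusted p = 0.0121). The difference between the lines was 0.13 with a 95% interval of -0.19 to 0.45 at 1416589_at, and -0.28 (-0.66 to 0.11) at 1448392_at, neither called (adjusted p = 0.648 and 0.383).

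The Sparc falls kept their direction under all 15 alternatives, with values at 1416589_at of -1.17 to -0.72 for NIH3T3 and -1.60 to -1.16 for B16F10. Scaling on the poly-A spikes, RNAs added before labelling, ended the NIH3T3 call at that probe set (-0.72, adjusted p = 0.0676), and a fit without the variance trend ended the B16F10 call (adjusted p = 0.0564). At 1448392_at the B16F10 call was also lost without that trend (0.0912), with values as deposited (0.0745) and without B16F10 clone 1 (0.0592). The dim probe set 1458204_at was not tested. There the NIH3T3 control read 121 and the uncloned array 51.9, while clones 1 and 2 read 32.5 and 17.3. The spikes themselves differed between the groups, whose median spike lay -0.26, -0.25 and -0.50 log2 units from the control's in the uncloned array and clones 1 and 2 of NIH3T3, and 0.47, 0.27 and 0.57 in B16F10 clones 1 to 3. With spike scaling the changes at 1416589_at were -0.72 in NIH3T3 and -1.60 in B16F10. At 1448392_at they were -0.93 and -1.40, a difference between the lines of 0.47. Over 14 alternatives the difference at 1416589_at reached 0.87, above the interval of -0.19 to 0.45 given above, and was called under 0. How alike the Sparc falls were in the lines thus depended on the scaling.

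Sparcl1, coding for hevin, a relative of Sparc with a part in synapse formation, was above the control in all 6 PGC7 arrays without a call. The NIH3T3 control read 819 and the uncloned array 1026, while clones 1 and 2 read 2075 and 2591. The B16F10 control had 1447 and clones 1 to 3 had 2952, 2784 and 2866. The uncloned array stood close to its control and the NIH3T3 clones far above it, while the B16F10 clones were alike. The changes were 1.10 ± 0.41 (adjusted p = 0.113) and 0.98 ± 0.41 (adjusted p = 0.303). Without the uncloned array they were called in NIH3T3 (1.49, adjusted p = 0.000213) and in B16F10 (0.98, adjusted p = 0.00635), and the B16F10 value was called with that line's arrays alone (adjusted p = 0.00332). The difference between the lines was 0.12, with a 95% interval of -1.19 to 1.43.

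Fstl1 codes for a secreted glycoprotein that binds BMP ligands, and its changes had opposite signs in the lines. At 1416221_at the NIH3T3 control read 17933 and the uncloned array 4852, while clones 1 and 2 read 1560 and 1115. All 3 were below the control, and the uncloned array lay between it and the clones. The change was -3.13 ± 0.64 (adjusted p = 0.0165). At 1448259_at the signals were 11485, 2980, 897 and 611 in that order (-3.27 ± 0.68, adjusted p = 0.0173). Without the uncloned array the changes were -3.76 and -3.94. Both calls were lost with the NIH3T3 arrays alone (adjusted p = 0.0862 and 0.0912) and without the variance trend (0.0583 and 0.0599). In B16F10 the control had 352 and clones 1 to 3 had 786, 776 and 1016 at 1416221_at, and 371 against 779, 854 and 973 at 1448259_at. Every B16F10 clone was above its control, but the changes of 1.25 ± 0.64 and 1.20 ± 0.68 were not called (adjusted p = 0.409 and 0.459). They were called with the B16F10 arrays alone (adjusted p = 0.012 and 0.00904) and without the uncloned NIH3T3 array (0.0145 and 0.0163). At 1448259_at NIH3T3 clone 1 lay within the range of the B16F10 clones, and the NIH3T3 control was far above all other arrays.

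Tgfbi, a fasciclin-domain relative of Postn named for its induction by TGF-beta, rose in NIH3T3. At 1448123_s_at the control read 644 and the uncloned array 2582, while clones 1 and 2 read 3310 and 3326. All 3 PGC7 arrays were far above the control. The change was 2.23 ± 0.41 (adjusted p = 0.0107). The changes at 1456250_x_at and 1415871_at were 2.36 ± 0.38 and 2.57 ± 0.52 (adjusted p = 0.0057 and 0.0156), and 1437463_x_at had 1.65 ± 0.61 without a call (adjusted p = 0.115). The control was lowest at all 4. With a pseudocount of 1 the 3 calls were lost (adjusted p = 0.133, 0.103 and 0.138) while the changes were 2.24, 2.38 and 2.60. In B16F10 the Tgfbi signals were 0.655 to 28.2 over all arrays and probe sets, under the filter signal, and none was called (-0.24 to 0.56, adjusted p = 0.711 to 0.898).

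Tnc codes for tenascin C, an anti-adhesive protein of wounds and tumour stroma. At 1416342_at the NIH3T3 control read 1337 and the uncloned array 857, while clones 1 and 2 read 568 and 601. The control was highest, and the value was not called (-0.999 ± 0.35, adjusted p = 0.102). It was called at a pseudocount of 50 (-0.96, adjusted p = 0.0344) and without the uncloned array (-1.18, adjusted p = 0.0496). In B16F10 the signal was 3.27 to 4.90 in all 4 arrays, with a change of 0.07 (adjusted p = 0.957). At the untested probe set 1456344_at the NIH3T3 control read 62.0 and the uncloned array 23.4, while clones 1 and 2 read 0.865 and 2.03.

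Fn1 codes for fibronectin, whose fibrils form the first scaffold for collagen and other matrix proteins, and its probe sets disagreed. At 1426642_at the NIH3T3 control read 29718 and the uncloned array 24881, while clones 1 and 2 read 31682 and 31011. The control lay within the PGC7 arrays, with a change of -0.03 ± 0.21 (adjusted p = 0.937). At 1437218_at the control had 3129 and these arrays 1540, 1583 and 1215. The control was well above all 3, and the probe set was called lower (-1.12 ± 0.31, adjusted p = 0.0495). This call was lost under 9 of 15 alternatives, among them leaving out NIH3T3 clone 1 (adjusted p = 0.0786), NIH3T3 clone 2 (0.106), B16F10 clone 2 (0.054) or B16F10 clone 3 (0.0748). In B16F10, at 1426642_at the control read 1411 and clones 1 to 3 read 949, 667 and 891, all below it (-0.77 ± 0.21, adjusted p = 0.13). It was called with spike scaling (-1.19, adjusted p = 0.021) and without the uncloned NIH3T3 array (adjusted p = 0.0371). At 1437218_at the control read 30.1 and the clones 57.3, 31.8 and 36.9 (0.35 ± 0.31, adjusted p = 0.656). Which transcript region each probe set reads was not analysed here.

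**Figure D2:**
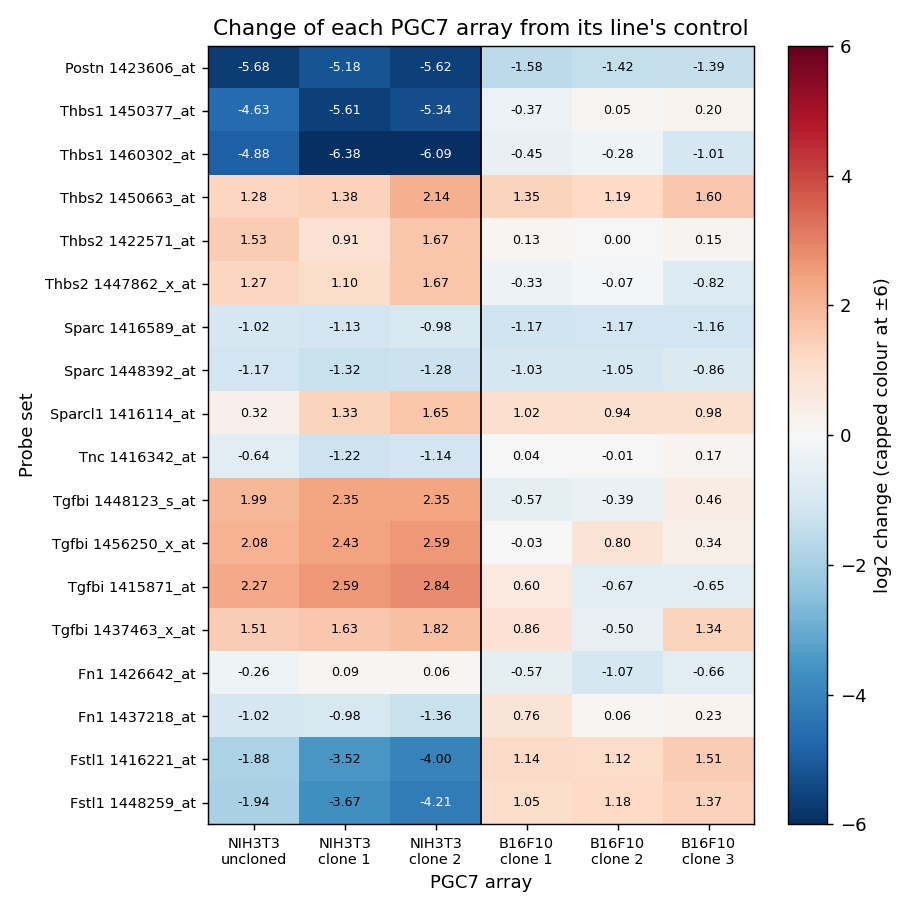
Difference in log2(signal + 9) of each PGC7 array from the control of its line, for the 18 tested probe sets in rows and 6 PGC7 arrays in columns. Blue is lower and red is higher than the control. The uncloned NIH3T3 array has smaller changes than the clones for Fstl1 (-1.88 against -3.52 and -4.00 at 1416221_at) and Sparcl1 (0.32 against 1.33 and 1.65).

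The difference between the lines was tested directly. Of 18 probe sets, 5 had a more negative change in NIH3T3 than in B16F10 and 1 a more positive one, against 3.80% and 3.08% of all tested. Postn differed by -4.03 ± 0.44 (adjusted p = 0.00261), and Thbs1 by -5.15 ± 0.61 and -5.20 ± 0.81 (adjusted p = 0.00357 and 0.00953). These 3 were called under all 14 alternatives that allow the comparison. Both Thbs1 probe sets passed the filter only through NIH3T3. From their B16F10 control signals log2(signal + 9) could fall by no more than 2.23 and 2.25, so their low B16F10 level fixed part of the Thbs1 difference. Fstl1 differed by -4.39 ± 0.91 and -4.47 ± 0.96 (adjusted p = 0.027 and 0.0307), held under 9 and 8 of the 14, with values of -5.01 and -5.14 without the uncloned array. Leaving out NIH3T3 clone 1 or B16F10 clone 1, 2 or 3 ended both Fstl1 calls (adjusted p = 0.0584, 0.0637, 0.0636 and 0.0712 at 1416221_at). Tgfbi at 1448123_s_at differed by 2.40 ± 0.59 (adjusted p = 0.0473), held under 6 of 14. Tgfbi too passed the filter only through NIH3T3, so this value sets the NIH3T3 change against B16F10 signals of 1.08 to 11.7, under the filter signal. The call was lost without NIH3T3 clone 1 (0.1) or 2 (0.0949) and without B16F10 clone 1 (0.0836) or 2 (0.0912). Its other probe sets were not called (1.09 to 2.81, adjusted p = 0.0584 to 0.509). For Fn1 the difference was 0.73 at 1426642_at and -1.47 at 1437218_at (adjusted p = 0.181 and 0.0851).

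**Figure D3:**
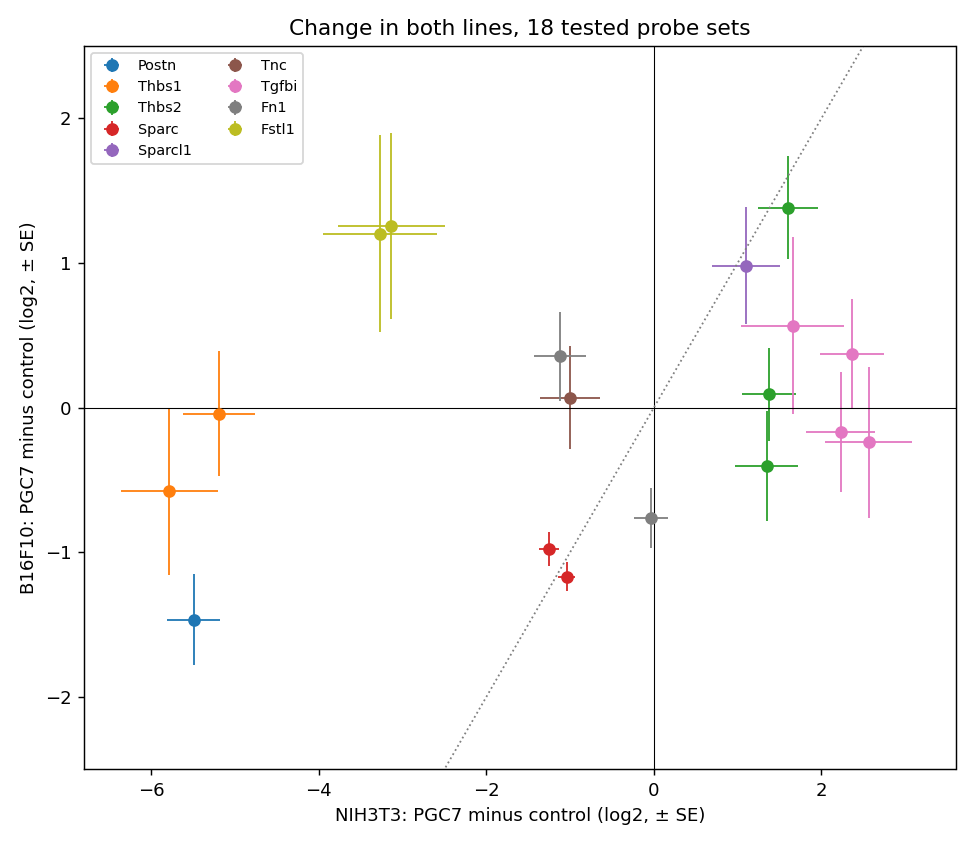
Change in NIH3T3 on the horizontal axis against change in B16F10 on the vertical axis (PGC7 minus control, log2, bars ± SE of the fit) for the 18 tested probe sets, coloured by gene. The dotted line marks equal changes. Both Sparc probe sets lie near that line at about -1 on each axis, and the Postn, Thbs1 and Fstl1 points lie far to its left.

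Compared between the lines, 17 of the 18 probe sets were higher in NIH3T3 and 1 was lower, where 42.0% and 29.6% of all tested probe sets were called. A probe set could enter the test through either line, and the line cannot be told apart from any array batch. The tested probe sets of Thbs1, Thbs2, Tnc and Tgfbi, and Fn1 1437218_at, entered only through NIH3T3. Their calls as higher in NIH3T3 were thus largely fixed by the filter, and the count of 17 is a description. Each line's level is the mean of its control and of its PGC7 mean, so the single control weighs as much as the 3 PGC7 arrays together. The difference was 4.75 ± 0.15 for Fn1 at 1426642_at (adjusted p = 5.07e-08). Tnc, Tgfbi and Thbs2 were called higher in NIH3T3 but lay below the filter signal in every melanoma array, so the pseudocount sets the size of their differences and none is given. Sparc was expressed strongly in both lines, with a difference of 0.95 ± 0.07 at 1416589_at (adjusted p = 5.03e-06) that turned to -0.60 with the values as deposited. The gene lower in NIH3T3 was Sparcl1 (-0.75 ± 0.29, adjusted p = 0.0407). That call was lost under 6 of 14 alternatives, among them leaving out B16F10 clone 1 (adjusted p = 0.0704), 2 (0.0681) or 3 (0.0705).

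Other genes of the same matrix system were described from lists of relatives, receptors, binding partners and TGF-beta genes. These lists, too, were chosen with earlier results of these data known, so their counts are a description. Of 15 tested relatives (of 30 listed), 7 fell and 2 rose in NIH3T3 (7.35% and 7.88% of all genes), with a median of -0.88. Fbln5, coding for fibulin 5, which helps assemble elastic fibres, went from 16862 to 988 (-4.08 ± 0.14, adjusted p = 7.13e-06). In the CCN family of matricellular proteins Ccn4 (1613 to 105, -3.87) and Ccn5 (3434 to 305, -3.81) had the largest falls. Ccn2 (2503 to 413, -2.79, adjusted p = 0.0233) and Ccn1 (1682 to 363, -2.48, adjusted p = 0.0407) were also called lower. Ccn3 was above the control without a call (34.5 to 103, 1.34, adjusted p = 0.122), and Ccn6 was not tested. Smoc1, a Sparc-family gene, fell too (219 to 21.4, -3.04). The Ccn5 change was -3.01 without the uncloned array. Its call was held under 8 of 15 alternatives and was lost without NIH3T3 clone 1 (adjusted p = 0.0508), B16F10 clone 1 (0.0527) or B16F10 clone 3 (0.0629). In B16F10, where 1.18% of all genes rose and 0.387% fell, Fbln5 was the 1 relative called, in the other direction (3248 to 5540, 0.77 ± 0.14, adjusted p = 0.0453). That call held under 5 of 15 alternatives. It was lost without any 1 of the B16F10 clones 1, 2 and 3 (adjusted p = 0.141, 0.0995 and 0.165), NIH3T3 clone 1 (0.0617) or NIH3T3 clone 2 (0.0769).

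Of 16 tested receptor genes, 4 rose and 1 fell in NIH3T3 (7.88% and 7.35% of all genes), with a median of 0.15. Among the integrin beta subunits, Itgb5 and Itgb3 were called in opposite directions. Itgb1 (2576 to 2734, 0.08, adjusted p = 0.835) and Itgb8 (231 to 323, 0.40, adjusted p = 0.652) were not called. Itgb5 fell from 2590 to 172 (-3.97 ± 0.45, adjusted p = 0.00118) and Itgb3 rose from 11.3 to 321 (3.62 ± 0.76, adjusted p = 0.0182), both partners of the alpha-v subunit in receptors for vitronectin and periostin. Itgb3 lay under the filter signal of 49.3 in the control. It read 681 in the uncloned array and 151 and 130 in clones 1 and 2, and its change was 2.88 without the uncloned array. The Itgb3 call was lost with values as deposited (adjusted p = 0.0516), with the line alone (0.0979) and without the variance trend (0.0564). Itga5, the alpha subunit of the main fibronectin receptor, rose from 883 to 2552 (1.52 ± 0.37, adjusted p = 0.0325) and the hyaluronan and osteopontin receptor gene Cd44 from 5441 to 10298 (0.91 ± 0.15, adjusted p = 0.00711). The Itga5 call held under 9 of 15 alternatives. Among the others, it was lost without NIH3T3 clone 1 (adjusted p = 0.0602), NIH3T3 clone 2 (0.0754) or B16F10 clone 3 (0.051). In B16F10 the 1 called receptor gene was the syndecan gene Sdc1 (1009 to 602, -0.74 ± 0.14, adjusted p = 0.0496), called under 5 of 15 alternatives. It was lost without any 1 of B16F10 clones 1, 2 and 3 (adjusted p = 0.114, 0.122 and 0.179), NIH3T3 clone 1 (0.0891) or NIH3T3 clone 2 (0.075).

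Of 15 tested assembly and binding partners, 8 fell and 1 rose in NIH3T3 (7.35% and 7.88% of all genes), with a median of -0.79. Nid2, a basement membrane linker gene, fell from 857 to 49.6 (-4.25 ± 1.07, adjusted p = 0.0356), the proteoglycan gene Lum from 262 to 36.2 (-2.69), Lox, coding for the collagen cross-linking lysyl oxidase, from 25603 to 5283 (-2.28 ± 0.24) and Pcolce, which enhances procollagen processing, from 17569 to 4364 (-2.01 ± 0.19). Nid2 read 5.49 in the uncloned array and 72.0 and 71.4 in clones 1 and 2, and its change was -3.42 without the uncloned array. The Nid2 call held under 9 of 15 alternatives. It was lost without B16F10 clone 2 (adjusted p = 0.0614) or clone 3 (0.054). A pseudocount of 1 (0.12), no filter (0.0614), the line alone (0.0871) and no variance trend (0.0805) also ended it. The proteoglycan gene Bgn fell from 27001 to 7558 in NIH3T3 (-1.85 ± 0.24, adjusted p = 0.00201). It was also the 1 call in B16F10, at signals of 23.9 and 3.81 that lie under the filter signal (-1.37 ± 0.24, adjusted p = 0.0377). The B16F10 call held under 6 of 15 alternatives. It was lost without any 1 of B16F10 clones 1, 2 and 3 (adjusted p = 0.108, 0.0775 and 0.0912), NIH3T3 clone 1 (0.083) or NIH3T3 clone 2 (0.0806).

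Of 13 tested TGF-beta ligand, receptor and Smad genes, 3 rose and 1 fell in NIH3T3 (7.88% and 7.35% of all genes), with a median of 0.14. The ligand genes Tgfb1 (542 to 2265, 2.05 ± 0.32, adjusted p = 0.00535) and Tgfb3 (865 to 1721, 0.97 ± 0.23) rose, as did the receptor gene Acvr1 (1166 to 2349, 1.00 ± 0.17). The ligand gene Tgfb2 went the other way without a call (87.8 to 31.3, -1.29 ± 0.36, adjusted p = 0.0512). Tgfbr2, the ligand-binding receptor of the pathway, fell from 4454 to 2013 (-1.16 ± 0.21, adjusted p = 0.00989). The Tgfb3 call held under 9 of 15 alternatives. Among the others, it was lost without NIH3T3 clone 1 (adjusted p = 0.0629), NIH3T3 clone 2 (0.0633), B16F10 clone 1 (0.0509) or B16F10 clone 3 (0.0502). In B16F10 0 of the 13 were called in limma (1.18% of all genes higher and 0.387% lower). At an unadjusted p under 0.05, 2 were higher and 1 lower, where 9.15% and 5.93% of all tested probe sets were.

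**Figure D4:**
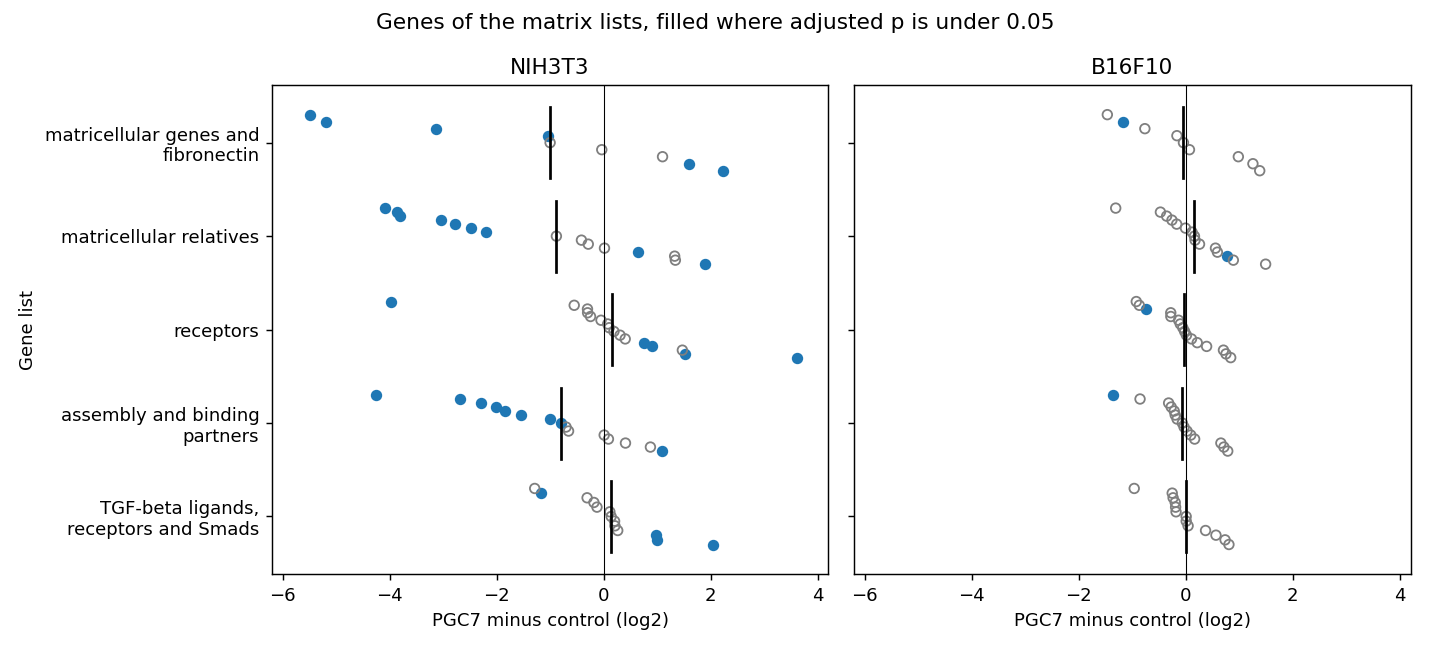
Change of each tested gene (PGC7 minus control, log2) at its brightest probe set by gene list, NIH3T3 at left and B16F10 at right. Filled points were called at an adjusted p under 0.05, and vertical bars are medians. The NIH3T3 medians are -0.999, -0.88, 0.15, -0.79 and 0.14 from the top, and few points are filled in B16F10.

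Markers of other cell types were read in the same arrays. For the 12 fibroblast markers the NIH3T3 control summed to 137576, the uncloned array to 103195, clone 1 to 100563 and clone 2 to 108458. Of the 11 tested, 2 fell and 0 rose in NIH3T3 in limma, against 7.35% and 7.88% of all genes. At an unadjusted p under 0.05, 4 were lower and 0 higher, where 16.1% and 12.7% of all tested probe sets were. The collagen gene Col1a1 went from 23293 to 524 (-5.50, adjusted p = 0.000271) and Lum is given above, while the bright Col3a1 went from 27079 to 29436 (0.12, adjusted p = 0.778). For 7 macrophage markers the sums in the same order were 548, 919, 1085 and 1148, mostly through Cd14 (131 to 471, 520 and 578). Adgre1, Lyz2 and Fcgr1 did not pass the filter and were not tested, and Lyz2 went from 114 to 35.0, 31.7 and 38.6. Without a detection call, whether these transcripts were present was not tested. In B16F10 the lowest sum of the 10 melanocyte markers, 115434, was that of the control. There 1 of the 10 was called higher and 0 lower, against 1.18% and 0.387% of all genes. The 1 called was Trpm1 (859 to 3985, 2.15 ± 0.36, adjusted p = 0.0356). The part of these differences in the matricellular changes was not tested. The endothelial and epithelial sums were 52.4 to 140 and 228 to 452 over the NIH3T3 arrays. The ratio of 3' to 5' signal, a sign of RNA integrity, was 0.755 to 0.793 for Gapdh and 1.15 to 1.27 for beta-actin in NIH3T3, and 0.841 to 0.873 and 1.29 to 1.34 in B16F10.

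The genes whose changes over the 6 PGC7 arrays were most like each matricellular gene were found by the root mean square difference of the log2 changes, as a description. For Thbs1 these were the chemokine gene Cxcl5 (difference 0.31), the collagen gene Col1a1 (0.40) and AW551984 (0.44). For Postn they were Col1a1 (0.86), Mn1 (0.90) and Prickle1 (0.96). Sparc was followed by Tmem158 (0.13), Osgin1 (0.21) and Gpatch4 (0.23). Sparcl1 was followed by 4930447F24Rik (0.19), Wfdc3 (0.25) and Espn (0.27), and Fstl1 by the G protein regulator gene Rgs2 (0.53), Anxa3 (0.61) and Lum (0.61). The hyaluronan synthase gene Has2 was the second nearest to Tgfbi (0.32), after Scgn (0.30) and before Gpat3 (0.33). For Thbs2 the nearest were Tmem268 (0.31), C530044C16Rik (0.32) and Naglu (0.34), for Tnc Krit1 (0.07), Ipo5 (0.12) and Rab11fip4 (0.12), and for Fn1 Ints13 (0.11), Anxa1 (0.16) and Zfp423 (0.17). All of these values share the single control of each line. For Thbs1, Thbs2, Tnc and Tgfbi the B16F10 changes come from signals under the filter signal. Several matched genes also had B16F10 control and PGC7 means under it. Among them were Col1a1 (8.33 and 4.14), Mn1 (11.3 and 6.28), Cxcl5, AW551984, Anxa3 and Lum, so their B16F10 changes say little. The Thbs2 match used 1450663_at, whose B16F10 change of 1.38 was not shared by its other probe sets (0.09 and -0.40). The Fn1 match used 1426642_at (-0.03 in NIH3T3 and -0.77 in B16F10), whereas 1437218_at had -1.12 and 0.35. Its match Zfp423 was dim in NIH3T3 (2.84 in the control and 2.46 in the PGC7 mean).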

How the data were processed

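The authors deposited 1 intensity per probe set and array, using MAS5 per the submitters' processing notes, which give no version. In the deposited table the trimmed mean (2% cut at each end) was 500.003 for the 4 B16F10 columns and 143 to 189 for NIH3T3, so all columns were multiplied to 500, by 2.65 to 3.49 in NIH3T3. Probe sets were named by the platform annotation (34958 with 1 symbol, 932 with several, 9211 with none), updated by gene identifier to RefSeq. The pseudocount of 9 was set near the lower quartile of the scaled signals. Probe sets were kept when their mean log2 value reached the median of all values (signal 49.3) in either line, and 64 control probe sets were left out.

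limma 3.58.1 in R 4.3.3 fitted 4 group means to 8 arrays with a variance trend (8.50 degrees of freedom). The fit takes lone controls to vary as PGC7 arrays do, and nothing states that cultures were independent, so the p-values reflect only how these samples vary, which may be technical. The script was tested on simulated data. The genes, lists and tests were chosen with earlier results of these data known. A gene was stood for by its brightest probe set. Named genes were all of the matricellular set, up to 4 called genes per list and line with the largest change, and the 3 nearest by likeness. Some further genes of the lists were named beside these. A planned count of a tripeptide in the proteins was not run. Alternatives were quantile normalization, values as deposited, poly-A spike scaling within lines, pseudocounts of 1 and 50, no filter or a mean signal of 200, each line alone, no variance trend, and leaving out each PGC7 array.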

Additional observations from a re-analysis of the deposited data

Results flagged for a closer look

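6 probe sets of 4 genes were singled out because their change differed between NIH3T3 and B16F10 in limma's test of that difference. The NIH3T3 change minus the B16F10 change was -4.03 for Postn 1423606_at (adjusted p = 0.00261), -5.15 for Thbs1 1450377_at (0.00357) and -5.20 for Thbs1 1460302_at (0.00953). These Thbs1 probe sets were under the filter signal in every B16F10 array (12.2 to 39.2). From there log2(signal + 9) could fall by no more than 2.23 and 2.25, so their difference is in part fixed by that low level. The difference of changes was -4.39 for Fstl1 1416221_at (0.027) and -4.47 for Fstl1 1448259_at (0.0307). It was 2.40 for Tgfbi 1448123_s_at (0.0473), whose B16F10 signals of 1.08 to 11.7 were also under the filter signal. All 3 PGC7 arrays of NIH3T3 were below the control and all 3 B16F10 clones above theirs for both Fstl1 probe sets. No group had the 4 samples needed for a test of outlying samples.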

How the results depend on the processing

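Over all 25236 probe sets the counts called were 3229 in NIH3T3, 300 in B16F10, 1737 for the difference between the lines and 18047 between the lines, and those of the matricellular probe sets were 13, 2, 6 and 18. Quantile normalization gave 199 over all in B16F10. Values as deposited gave 1 matricellular call in B16F10 (211 over all) and 1045 over all for the difference. Spike scaling gave 4 matricellular calls in B16F10 (360 over all) and, for the difference, 10 matricellular and 2985 over all. A pseudocount of 1 gave 8 matricellular calls in NIH3T3 (2799 over all), and one of 50 gave 10 for the difference (2162 over all). Without the filter 177 were called over all in B16F10. With each line alone there were 1151 over all in NIH3T3, and 6 matricellular and 2196 over all in B16F10. Without the variance trend there were 2127 over all in NIH3T3, 0 matricellular (4 lower and 1 higher at an unadjusted p under 0.05) and 70 over all in B16F10, and 3 matricellular and 934 over all for the difference. Leaving out 1 PGC7 array gave 11 to 15 in NIH3T3, 1 to 8 in B16F10, 3 to 8 for the difference, 17 to 19 between the lines for the matricellular probe sets, and 2001 to 6124 in NIH3T3, 59 to 1814 in B16F10, 739 to 4407 for the difference, 16846 to 19512 between the lines over all. Without the uncloned array there were 6124 over all in NIH3T3, 1814 in B16F10 and 4407 for the difference. Over all in B16F10, leaving out NIH3T3 clone 1 or 2 gave 133 or 178, and B16F10 clone 1, 2 or 3 gave 67, 139 or 59. NIH3T3 fell to 2001 without B16F10 clone 1, and the difference to 739, 978 or 780 without B16F10 clone 1, 2 or 3. The matricellular counts for the difference were 3 and 5 without NIH3T3 clones 1 and 2 (1198 and 1363 over all), and 4 without any 1 of the B16F10 clones. The cause was not tested.

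The median change over all probe sets was -0.07 (NIH3T3) and 0.02 (B16F10). It became 0.23 and -0.38 on the spikes, and -0.19 in NIH3T3 as deposited, where the median line difference went from 0.24 to -1.30, so directions are relative to the average probe set. The share of calls that were higher in NIH3T3 was 50.6%, 75.6% on the spikes and 36.7% as deposited, and in B16F10 77.7%, 31.9% on the spikes and 88.6% without the trend. The sign turned for these values. As deposited, the difference of changes was -0.000976 for Sparc 1416589_at and -0.0220 for Sparcl1, and the line difference -0.60 and -0.90 for Sparc 1416589_at and 1448392_at, both called. On the spikes, Fn1 1426642_at had 0.29 in NIH3T3, Tnc 1416342_at -0.0602 in B16F10, and Sparc 1448392_at a difference of 0.47. With a pseudocount of 1 the difference for Thbs2 1450663_at was -0.84. Over the fits that leave out 1 array, Fn1 1426642_at ranged from -0.0974 to 0.0768 in NIH3T3 (highest without the uncloned array). The difference ranged from -0.0505 to 0.378 for Thbs2 1450663_at and from -0.155 to 0.510 for Sparcl1 (both lowest without NIH3T3 clone 2). In B16F10 Thbs1 1450377_at ranged from -0.163 to 0.121 and Tgfbi 1448123_s_at from -0.481 to 0.0384 (both highest without B16F10 clone 1). No paired analysis was possible because the single control of each line carries no clone number. The absence of a detection call limits what dim signals show.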

Other observations

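A probe set annotated to both Pald1 and Thbs1, 1421811_at, was left out of the counts because its gene is not unique. The NIH3T3 control read 11098 and the uncloned array 478, while clones 1 and 2 read 178 and 195. The B16F10 control read 271, and clones 1 to 3 read 119, 144 and 77.0.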
